A study of Mus musculus with 6 samples.

Results

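The genes that build and control the mitotic spindle were followed in melanomas treated with rigosertib (RGS). They are 42 genes of spindle checkpoint, kinetochore, chromosome structure, anaphase and cytokinesis proteins, taken by name from the 40166 genes of the count table. Kinesins named *Kif*, cyclins and polo-like kinases were left out, while *Cenpe*, the gene of a kinesin at kinetochores, was kept. All 42 had counts in every tumor, from 25 to 8483 per gene and tumor, and all 42 were among the 15355 genes that passed the filter on low counts and were tested.

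Bulk RNA was sequenced from 6 tumors grown from YUMM3.3, a mouse melanoma cell line with mutant BRAF, injected under the skin of the lower back of C57BL/6 mice. RGS, a compound that interferes with RAS signaling and has also been studied as an inhibitor of mitosis, was given by oral gavage at 300 mg/kg in the group of tumors 10 to 12, and tumors 7 to 9 received the water vehicle (0 mg/kg). Tumors of both groups were taken after 17 days of treatment and carried the same cell line in the same host strain, so the results concern 1 tumor line. The labels name 3 replicates per group, without saying that each came from its own mouse, and do not give the sex of the animals, and the p-values measure the spread between these tumors. In bulk tumors, fewer cells of a type and less RNA per cell cannot be told apart, and this holds for dividing cells too.

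Before a cell divides, its duplicated chromosomes are condensed, and each pair of sister chromatids is attached to spindle microtubules through kinetochores, protein assemblies built on the centromere. The spindle checkpoint, with BUB and MAD proteins as its core, holds back the anaphase-promoting complex until the chromosomes are attached. That complex then marks securin and cyclin B for destruction, separase cuts the cohesin that holds the sisters together, and the contractile ring divides the cell. Most of these genes are transcribed late in the cell cycle, and their RNA is therefore used as a sign of dividing cells in tumors.

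Mitotic gene RNA was lower in RGS-treated tumors in most of the list. *Bub1*, the checkpoint kinase, was lower 7.03-fold, *Anln*, which encodes the contractile ring protein anillin, 6.13-fold, and *Ect2*, which encodes the exchange factor that switches on RhoA at the division plane, 4.61-fold. Of the 42 genes, 33 (78.6%) fell past an adjusted p of 0.05, by the quasi-likelihood test of edgeR (Benjamini-Hochberg, all genes tested), where 16.5% of all genes tested fell. *Pttg1*, the gene of securin, alone rose (2.38% of the list against 16.3% of all genes), and 8 genes did not pass the threshold. A fall of at least 1 on the log2 scale was called for 31 of the 42, against 9.44% of all genes tested. The median log2 fold change of the 42 was -1.48, with a range of -2.81 to 0.67, and that of all genes tested was -0.05.

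The tumors within a group were alike in this respect. Counts of the 42 genes together, as CPM (counts scaled to a common library total) without TMM factors, were 2756, 2502 and 2413 in vehicle tumors 7, 8 and 9, and 1032, 1007 and 1037 in RGS tumors 10, 11 and 12. The vehicle mean was 2557 ± 177.9 (SD, n = 3) and the RGS mean 1025 ± 15.97 (SD, n = 3), so that the share was 2.49 times as high in vehicle tumors. Every RGS tumor lay below every vehicle tumor for 35 of the 42 genes, against 24.0% of all genes tested. Every RGS tumor lay above every vehicle tumor for *Pttg1* and *Cenpt*, against 21.7% of all genes, and the groups overlapped for the other 5. In RGS tumors 10, 11 and 12, 37, 39 and 38 of the 42 genes lay below the vehicle mean. In vehicle tumors 7, 8 and 9, 13, 26 and 27 did, and the same count was not made over all genes.

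**Figure D1:**
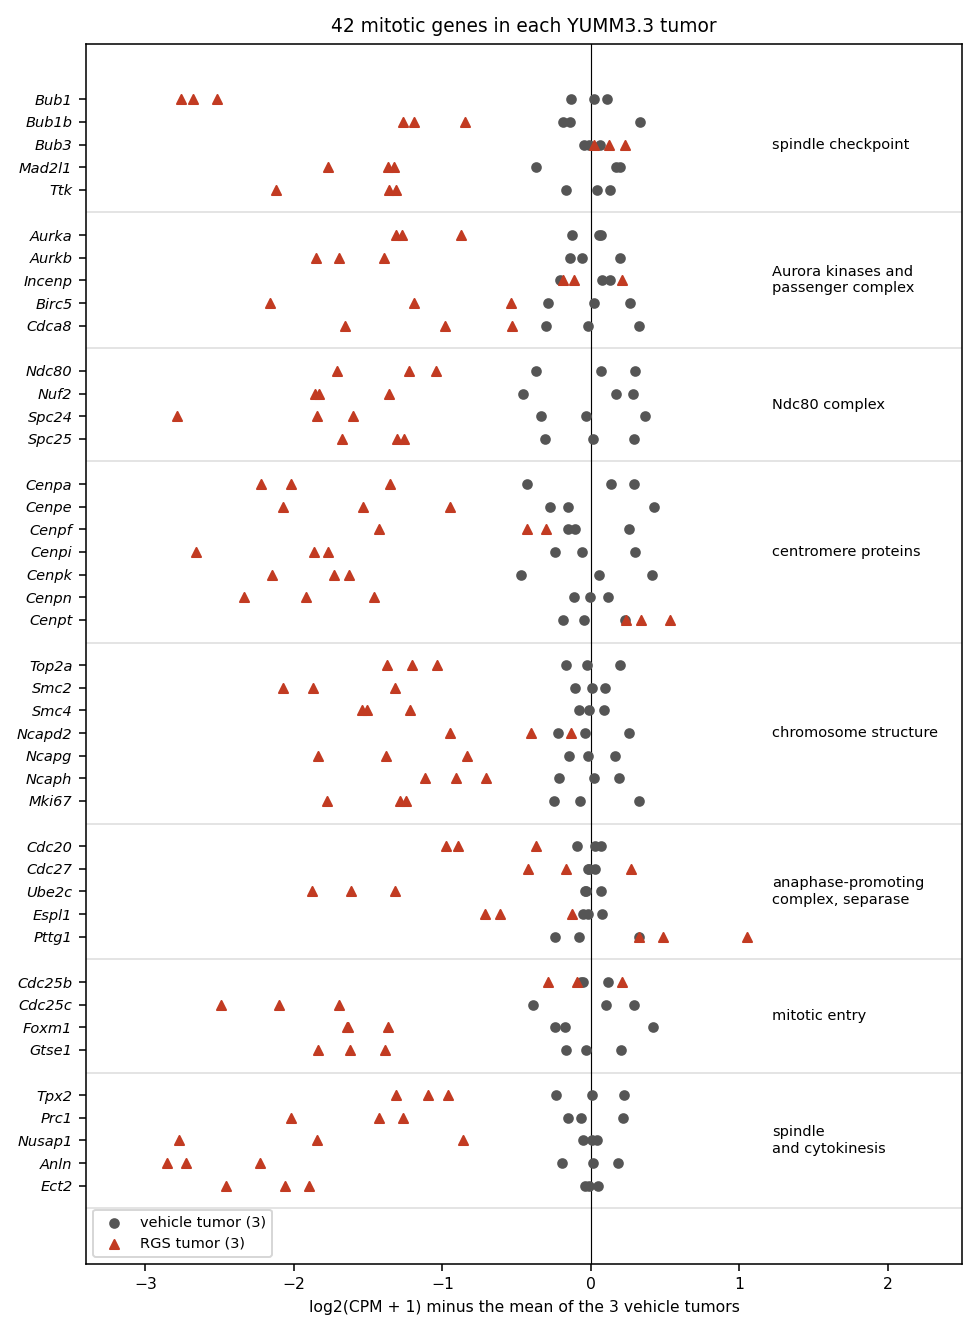
Level of each of the 42 mitotic genes in each tumor, as the difference in log2(CPM + 1) from the mean of the 3 vehicle tumors (x), with genes in rows by role. Circles are vehicle tumors and triangles are RGS tumors. Each RGS tumor has negative values for 37 to 39 of the 42 genes, and each vehicle tumor for 13 to 27. The median gene of each vehicle tumor lies between -0.05 and 0.07.

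CPM values from here on include the TMM factors. Depth and composition also differed between the groups. The vehicle libraries held 22793087 to 32555494 counts and the RGS libraries 13837932 to 21617368, with no overlap, so the effect of depth cannot be told apart from that of RGS here. After thinning every library to 13837932 counts 33 genes were again lower. Mitochondrial genes held 2.13 to 3.20% of counts in vehicle and 5.60 to 8.22% in RGS tumors, and without these genes 33 were again lower. Among markers of the melanocyte lineage, *Mlana*, *Tyr* and *Dct* had no count in any tumor, and the summed level of the 10 markers was 8.34 to 15.2 CPM in vehicle and 5.57 to 14.9 CPM in RGS tumors. These pigment cell markers thus do not mark the tumors as melanoma, and the name follows the cell line. Of 16 leukocyte markers, 9 were at 0 in every tumor, *Ptprc*, *Cd3e*, *Cd8a* and *Adgre1* among them, and the sum was 60.02 to 65.6 CPM in vehicle and 72.8 to 98.9 CPM in RGS tumors. Nearly all of it was *Cd68* (58.8 to 64.7 and 65.4 to 87.7 CPM, no call), and 1 of 3 tested rose, *Flt3*, from at most 0.599 CPM to 6.39, 6.55 and 10.8 CPM (adjusted p = 1.5e-04). Summed fibroblast markers (8 genes, *Lum* at 0) held 407.3 to 601.9 CPM in vehicle and 293.7 to 321.2 CPM in RGS tumors, with 4 lower and 1 higher of 7 tested. Most of the sum was *Col1a2* (188.3 to 318.2 and 134.7 to 167.5 CPM) and *Pdgfra* (159 to 214 and 96.9 to 121.9 CPM), both lower. The 1 that rose was *Dcn*, from 0.571 to 1.46 CPM in vehicle to 6.55 to 15.7 CPM in RGS tumors (adjusted p = 6.23e-05). Endothelial markers (6 genes, 1 at 0) summed to 0.946 to 1.20 CPM in vehicle and 3.24 to 11.3 CPM in RGS tumors, of which *Cdh5*, the 1 of 3 tested that rose, held 2.71 to 10.2 CPM in RGS tumors. Keratinocyte markers (6 genes, 2 at 0) summed to 0.400 to 1.72 and 6.72 to 20.99 CPM, and here the RGS sum was mostly *Ivl*, the 1 of 2 tested that rose, at 0 in vehicle and 5.87 to 19.6 CPM in RGS tumors, while *Krt5*, *Krt14* and *Krt1* had no count in RGS tumors. Skeletal muscle markers (6 genes, 3 at 0) summed to 6.34 to 10.6 and 3.99 to 8.20 CPM, and *Tnnt3* and *Mylpf*, those tested, did not pass the threshold. The study described the sequenced material as holding stromal and immune cells besides tumor cells. By flow cytometry it found CD45-positive leukocytes, with T cells and macrophages among them, in tumors of this line. In the counts, *Ptprc*, the gene of CD45, was at 0 in every tumor, as were *Cd3e* and *Adgre1*. These genes thus gave no RNA sign of those infiltrates, while *Cd68*, on the same list of leukocyte markers, had counts in every tumor. The reason for the difference from flow cytometry was not tested. The part of the cell types marked here in the fall of the mitotic genes was not tested.

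Late cell cycle genes often carry a pair of promoter elements, the CCAAT box, bound by NF-Y, and the cell cycle genes homology region (CHR), bound by the DREAM and MuvB complexes. The promoters of 8 of the 42 genes are shown as background to the comparison, chosen after their values and motifs were seen. *Bub1* fell furthest and has no CHR here. *Cenpa*, *Top2a*, *Prc1*, *Cdc20* and *Cenpn* fell and hold both elements, and *Bub3* and *Espl1* hold both and did not pass the threshold. Each run is the 150 bases before a RefSeq start on GRCm38.p6, 5′ to 3′ on the gene's strand. Capitals mark the CHR (TTTGAA or TTTAAA, either strand) and the CCAAT box (CCAAT, either strand).
Bub1 (chr2:127831860-127832009, minus strand): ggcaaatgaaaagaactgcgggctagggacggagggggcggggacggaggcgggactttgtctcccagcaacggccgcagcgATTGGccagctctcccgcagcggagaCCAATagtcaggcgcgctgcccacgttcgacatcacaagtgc
Cenpa (chr5:30666736-30666885, plus strand): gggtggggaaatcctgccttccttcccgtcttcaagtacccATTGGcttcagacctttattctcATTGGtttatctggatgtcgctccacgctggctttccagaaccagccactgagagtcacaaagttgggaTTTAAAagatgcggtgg
Top2a (chr11:99024190-99024339, minus strand): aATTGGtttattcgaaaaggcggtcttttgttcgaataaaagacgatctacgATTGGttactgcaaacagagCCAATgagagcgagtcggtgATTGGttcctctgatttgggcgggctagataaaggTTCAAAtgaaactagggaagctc
Prc1 (chr7:80294326-80294475, plus strand): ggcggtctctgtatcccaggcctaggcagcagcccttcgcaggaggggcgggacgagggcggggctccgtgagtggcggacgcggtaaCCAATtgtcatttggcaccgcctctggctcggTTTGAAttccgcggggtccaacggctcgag
Cdc20 (chr4:118437344-118437493, minus strand): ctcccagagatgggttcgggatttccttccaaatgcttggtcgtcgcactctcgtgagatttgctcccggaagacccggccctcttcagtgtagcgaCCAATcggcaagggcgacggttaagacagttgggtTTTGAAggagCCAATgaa
Cenpn (chr8:116921590-116921739, plus strand): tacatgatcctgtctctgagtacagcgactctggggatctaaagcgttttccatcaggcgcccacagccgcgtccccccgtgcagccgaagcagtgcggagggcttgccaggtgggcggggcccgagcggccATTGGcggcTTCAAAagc
Bub3 (chr7:131560220-131560369, plus strand): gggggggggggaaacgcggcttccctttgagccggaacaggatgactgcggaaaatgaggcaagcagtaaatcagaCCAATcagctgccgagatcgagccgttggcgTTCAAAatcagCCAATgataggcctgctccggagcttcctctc
Espl1 (chr15:102296143-102296292, plus strand): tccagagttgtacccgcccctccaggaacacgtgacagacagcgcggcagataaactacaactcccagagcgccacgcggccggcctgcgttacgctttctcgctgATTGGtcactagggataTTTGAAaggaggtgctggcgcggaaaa

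In these promoters the CHR began 9 to 43 bases before the start, counted from its first base on the gene's strand. It lay 17 bases before the start in *Cenpa*, 23 in *Top2a*, 30 in *Prc1*, 18 in *Cdc20*, 9 in *Cenpn*, 43 in *Bub3* and 27 in *Espl1*. *Prc1* and *Bub3* each have another RefSeq start, not shown, from which the CHR begins at -5 and at -167, so the range depends on the start picked. *Top2a* holds 4 CCAAT boxes, the farthest 149 bases before the start, and *Bub1* holds 2, at 68 and 42 bases. Over the window of 250 bases before to 50 after the start, 35 of the 42 genes have a RefSeq promoter entry. *Aurkb*, *Cdc25c*, *Foxm1*, *Incenp*, *Smc4*, *Spc24* and *Tpx2* have none.

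CHR letters stood in 25 of the 35 promoters (71.4%), against 22.6% of the promoters of genes tested and 30.6% of all 27025 genes with a promoter. The CCAAT box stood in 26 (74.3%, against 42.9% and 41.1%), and both stood in 21 (60%, against 9.32% and 12.2%). E2F site letters (TTCCCGC or TTCGCGC or TTGCCGC or TTGGCGC, either strand) stood in 7 (20%, against 18.8% and 10.9%). Among the 27 genes with an entry that fell, 20 (74.1%) held a CHR and 17 (63.0%) both elements, and among the 8 that did not fall, 5 (62.5%) and 4 (50%) did. These are matches of letters in a window, with no measure of binding, and the shares were not tested against each other.

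Spindle checkpoint genes fell except *Bub3*. Positions are those of the count table (mm10). *Bub1* (chr2:127801122-127831865) encodes a kinase that recruits the checkpoint to kinetochores, and its level was 50.8, 45.6 and 54.0 CPM in vehicle tumors 7, 8 and 9 and 6.53, 7.91 and 6.98 CPM in RGS tumors 10, 11 and 12. The lowest vehicle tumor was thus far above the highest RGS tumor, and the log2 fold change was -2.81 ± 0.22 (SE, adjusted p = 1.82e-08). *Ttk*, which encodes the kinase MPS1 at the head of the checkpoint, stood at 20.04, 17.1 and 21.3 CPM in vehicle and 6.96, 3.69 and 7.22 CPM in RGS tumors (log2 fold change -1.70 ± 0.31, adjusted p = 2.92e-04). *Mad2l1*, the gene of MAD2, which binds CDC20 in the checkpoint complex, stood at 50.6, 74.0 and 75.2 CPM and at 18.5, 24.9 and 25.6 CPM, with no overlap (-1.54 ± 0.21, adjusted p = 1.69e-05). *Bub1b*, which encodes BUBR1, another part of that complex, fell by 1.14 on the log2 scale (SE 0.20, adjusted p = 2.39e-04). *Bub3*, the partner that BUB1 and BUBR1 both need at kinetochores, had 106.1, 100.9 and 98.4 CPM in vehicle and 103.5, 110.9 and 119.6 CPM in RGS tumors. These values overlap, and the log2 fold change of *Bub3* was 0.13 ± 0.15 (adjusted p = 0.558).

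Of the Aurora kinases and the chromosomal passenger complex, 4 of 5 genes fell. *Aurkb* (chr11:69045647-69051664), the kinase of the complex that corrects wrong attachments, read 37.5, 29.4 and 31.2 CPM in vehicle and 8.29, 11.8 and 9.36 CPM in RGS tumors (log2 fold change -1.74 ± 0.24, adjusted p = 1.88e-05). *Aurka*, the kinase of spindle poles, fell by 1.20 (SE 0.23, adjusted p = 5.67e-04), and its groups did not overlap. *Birc5*, the gene of survivin, had 23.2, 28.9 and 34.4 CPM in vehicle and 5.59, 11.9 and 19.3 CPM in RGS tumors, a wide spread in the treated group (-1.24 ± 0.33, adjusted p = 0.00727). *Cdca8*, which encodes borealin, fell by 1.05 (SE 0.28, adjusted p = 0.0072). Its exons share 232 bases with 9930104L06Rik on the other strand. *Incenp*, the scaffold on which the passenger proteins assemble, was at 55.1, 53.0 and 43.5 CPM in vehicle and 44.0, 46.5 and 58.2 CPM in RGS tumors, overlapping throughout (log2 fold change -0.03 ± 0.18, adjusted p = 0.923).

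All 4 genes of the Ndc80 complex, the rod that links kinetochores to microtubules, fell. *Spc24* had the largest fall, from 16.0, 20.03 and 26.7 CPM in vehicle to 4.97, 2.11 and 6.06 CPM in RGS tumors (log2 fold change -2.24 ± 0.36, adjusted p = 9.06e-05). *Nuf2* was at 22.4, 35.0 and 38.0 CPM against 7.81, 7.99 and 11.5 CPM (-1.80 ± 0.27, adjusted p = 4.24e-05). *Spc25* fell by 1.503 (SE 0.25) and *Ndc80* fell by 1.38 (SE 0.24), with adjusted p of 1.51e-04 and 1.79e-04. The groups did not overlap in any of the 4 genes, RGS tumors being the lower.

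Among 7 centromere protein genes, 5 fell. *Cenpa* (chr5:30666777-30674830) encodes the histone H3 variant that marks the centromere, and its level was 57.9, 86.2 and 96.0 CPM in vehicle and 18.6, 30.1 and 16.0 CPM in RGS tumors (log2 fold change -1.90 ± 0.24, adjusted p = 8.39e-06). *Cenpi*, *Cenpk* and *Cenpn* belong to the inner kinetochore network on that histone. *Cenpi* fell by 2.29 (SE 0.33), *Cenpn* fell by 2.19 (SE 0.38) and *Cenpk* fell by 2.18 (SE 0.39), and the adjusted p of all 3 was at most 2.6e-04. *Cenpk* shares 233 exon bases with *Ppwd1* on the other strand, which also fell, by 0.89 (adjusted p = 0.047). *Cenpe*, the gene of a kinetochore motor, fell by 1.56 (SE 0.28, adjusted p = 3.33e-04).

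The other 2 centromere genes did not pass the threshold. *Cenpf*, which encodes a large coat protein of the kinetochore, read 26.4, 20.3 and 19.6 CPM in vehicle and 16.0, 17.6 and 7.53 CPM in RGS tumors, all lower, with RGS tumor 12 far under the rest (-0.69 ± 0.29, adjusted p = 0.0774). Without RGS tumor 11, *Cenpf* passed (adjusted p = 0.0358). *Cenpt*, whose protein binds DNA and anchors the Ndc80 complex, read 31.8, 23.5 and 26.0 CPM in vehicle and 31.9, 34.2 and 39.4 CPM in RGS tumors. The groups of *Cenpt* nearly touch, and its log2 fold change was 0.37 ± 0.20 (adjusted p = 0.17).

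**Figure D2:**
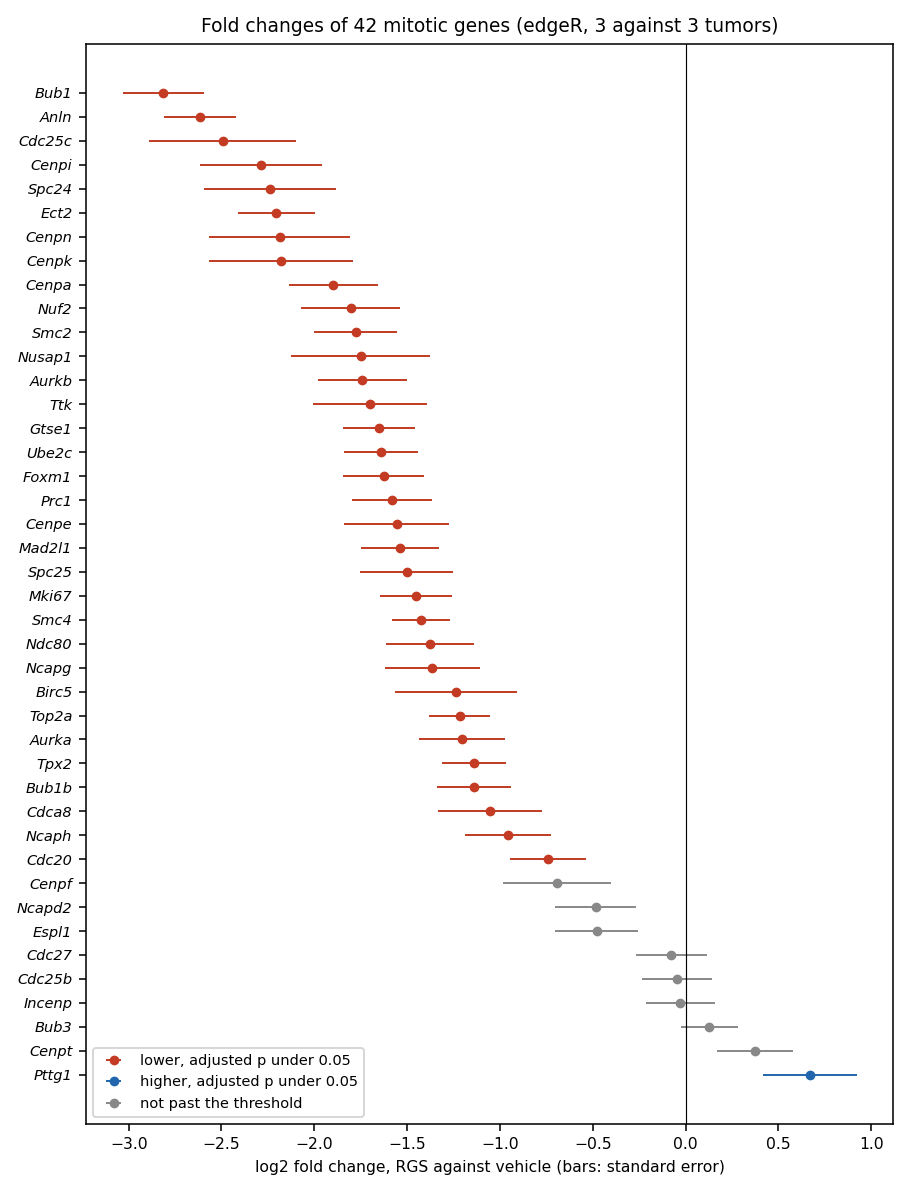
Log2 fold change of RGS against vehicle tumors for each of the 42 mitotic genes, with bars of 1 standard error from edgeR's fit, sorted by size and colored by whether the adjusted p was under 0.05. The values of 33 genes lie left of 0 and past the threshold, from *Bub1* at -2.81 to *Cdc20* at -0.74, and *Pttg1* at 0.67 is the only gene called higher.

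Chromosome structure genes fell in 6 of 7 cases. *Smc4* (chr3:69004738-69034623), a core subunit of both condensins, which compact mitotic chromosomes, was at 242.1, 254.2 and 272.3 CPM in vehicle and 87.3, 89.3 and 109.6 CPM in RGS tumors (log2 fold change -1.43 ± 0.16, adjusted p = 1.63e-06). *Smc2*, its partner, fell by 1.78 (SE 0.22, adjusted p = 7.25e-06). Of the non-SMC subunits of condensin I, *Ncapg* fell by 1.36 (SE 0.25) and *Ncaph* fell by 0.96 (SE 0.23), with adjusted p of 4.13e-04 and 0.0036. *Ncapd2* had 58.3, 47.3 and 41.4 CPM in vehicle and 36.5, 44.1 and 24.7 CPM in RGS tumors. Its groups overlap through RGS tumor 11, and its log2 fold change was -0.48 ± 0.22 (adjusted p = 0.096, and 0.0407 without that tumor). *Ncapg* shares 944 exon bases with *Lcorl* on the other strand, which fell by 1.47 (adjusted p = 2.77e-05).

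*Top2a* and *Mki67* are routinely read as marks of dividing cells. *Top2a* (chr11:98992943-99024189), the topoisomerase that untangles sister chromatids, had 199.6, 170.8 and 154.7 CPM in vehicle and 74.9, 66.7 and 84.3 CPM in RGS tumors (log2 fold change -1.22 ± 0.16, adjusted p = 1.56e-05). *Mki67*, the gene of the chromosome surface protein Ki-67, had 164.2, 110.0 and 124.5 CPM in vehicle and 54.6, 37.6 and 53.3 CPM in RGS tumors (-1.45 ± 0.19, adjusted p = 1.36e-05). For both genes the lowest vehicle tumor was above the highest RGS tumor. By protein staining of YUMM3.3 tumors, the study reported more Ki67-positive cells with RGS. By flow cytometry it found Ki67 in a larger share of T cells than of CD45-negative cells, which include the tumor cells. With RGS it reported more proliferation of cytotoxic T cells and less of CD45-negative cells. The difference between this RNA and the stained protein was not tested.

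The anaphase genes were mixed, with 2 of 5 lower, 1 higher and 2 with no call. *Ube2c* (chr2:164769898-164778822), the gene of the ubiquitin-conjugating enzyme of the anaphase-promoting complex, had 62.7, 58.2 and 58.4 CPM in vehicle and 15.5, 23.3 and 18.8 CPM in RGS tumors (log2 fold change -1.64 ± 0.20, adjusted p = 4.9e-06). *Cdc20*, the activator that the checkpoint holds back, had 41.3, 46.2 and 45.0 CPM against 23.3, 22 and 34.0 CPM (-0.74 ± 0.21, adjusted p = 0.00999). This call was lost without vehicle tumor 8 (adjusted p = 0.055) or RGS tumor 10 (adjusted p = 0.0534), and the exons of *Cdc20* share 53 bases with *Elovl1* on the other strand, which rose by 0.99 (adjusted p = 8.75e-04). *Cdc27*, a core subunit of the complex, read 58.6, 56.8 and 56.9 CPM in vehicle and 69.6, 42.6 and 51.0 CPM in RGS tumors, with overlap (-0.08 ± 0.19, adjusted p = 0.794).

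Separase and its inhibitor had log2 fold changes of opposite sign. *Espl1*, the gene of separase, had 31.1, 29.0 and 28.4 CPM in vehicle and 18.9, 17.6 and 27.0 CPM in RGS tumors, each treated tumor lower (log2 fold change -0.48 ± 0.22, adjusted p = 0.107), and it passed without RGS tumor 12 (adjusted p = 0.0308). *Pttg1* (chr11:43420250-43426251), the gene of securin, which keeps separase inactive, had 14.3, 16.1 and 21.6 CPM in vehicle and 21.7, 24.3 and 36.5 CPM in RGS tumors. The highest vehicle tumor and the lowest RGS tumor nearly touch, and the log2 fold change of *Pttg1* was 0.67 ± 0.25 (adjusted p = 0.0487). This call failed in 8 of 17 alternatives, with adjusted p up to 0.29 and a log2 fold change of 0.39 without RGS tumor 12, and it was also lost without vehicle tumor 7 (adjusted p = 0.12), vehicle tumor 8 (0.144) or RGS tumor 11 (0.0547).

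Of 4 genes of mitotic entry, 3 fell. *Cdc25c*, the gene of the phosphatase that helps switch on CDK1, had 14.3, 16.4 and 9.89 CPM in vehicle and 2.32, 3.39 and 1.53 CPM in RGS tumors (log2 fold change -2.49 ± 0.40, adjusted p = 9.49e-05). *Foxm1* (chr6:128362967-128376146), which encodes a transcription factor of late cell cycle genes, had 70.1, 46.1 and 44.0 CPM against 19.7, 16.1 and 16.0 CPM (-1.63 ± 0.22, adjusted p = 1.66e-05). *Gtse1*, which encodes a microtubule binding protein of G2 and S phase cells, fell by 1.65 (SE 0.19, adjusted p = 3.2e-06). *Cdc25b*, the related phosphatase, was at 44.2, 39.2 and 38.9 CPM in vehicle and 47.3, 38.1 and 33.1 CPM in RGS tumors, with overlap (-0.05 ± 0.19, adjusted p = 0.88). Its exons share 92 bases with *Spef1* on the other strand, which rose by 1.44 (adjusted p = 1.76e-04).

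All 5 spindle and cytokinesis genes fell. *Anln* (chr9:22332012-22389188) encodes the actin binding scaffold of the contractile ring, and its level was 236.3, 210.5 and 181.6 CPM in vehicle and 43.8, 30.6 and 28.0 CPM in RGS tumors (log2 fold change -2.62 ± 0.19, adjusted p = 9.89e-09). *Ect2* (chr3:27097222-27153878) had 60.9, 62.1 and 64.8 CPM in vehicle and 10.6, 14.2 and 16.0 CPM in RGS tumors (-2.20 ± 0.21, adjusted p = 2.2e-07). Both genes were far from overlap. *Prc1*, the gene of the protein that bundles the central spindle, fell by 1.58 (SE 0.22, adjusted p = 1.67e-05), and *Tpx2*, the gene of a spindle assembly factor that activates Aurora A, fell by 1.14 (SE 0.17, adjusted p = 5.37e-05). *Nusap1*, which encodes a spindle stabilizing protein, had 27.6, 26.9 and 25.8 CPM in vehicle and 6.72, 14.3 and 3.06 CPM in RGS tumors (-1.75 ± 0.37, adjusted p = 0.00133). RGS tumor 11 stood above the other treated tumors, and without it the log2 fold change of *Nusap1* was -2.45. *Prc1* shares 911 exon bases with *Rccd1* (log2 fold change -0.68, adjusted p = 0.103) and *Nusap1* 172 with *Oip5* (-2.53, adjusted p = 2.25e-04), each on the other strand.

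Reads from genes that overlap on opposite strands cannot be told apart without the strand setting, which is not given in the sources used here. Of the 40 members checked, 20 overlap another gene of the table, and the 7 named above overlap one that holds at least 24.1% of their counts (24.1% to 138%). *Incenp* and *Cdc25c* were not checked, as their identifiers are not in the annotation used.

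Ratios between proteins that work together were also read within single tumors, where library size drops out. The pairs were chosen after the values were seen, each with a partner whose fold change was the higher, so the direction of the ratios follows from that choice and they are given as values with no test. Per kilobase of the gene length given with the counts, *Bub1* stood at 0.770, 0.727 and 0.883 of *Bub3* in vehicle and at 0.102, 0.115 and 0.0939 in RGS tumors. *Aurkb* stood at 0.742, 0.605 and 0.784 of *Incenp* in vehicle and at 0.206, 0.276 and 0.176 in RGS tumors.

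For the separase pair, *Espl1* stood at 0.497, 0.413 and 0.301 of *Pttg1* in vehicle and at 0.200, 0.166 and 0.169 in RGS tumors. *Cdc25c* stood at 0.620, 0.803 and 0.489 of *Cdc25b* in vehicle and at 0.0942, 0.171 and 0.0888 in RGS tumors.

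Levels per length are in RPKM (CPM per kilobase of the gene length given with the counts). That length need not be the length of the RNA made in these tumors, so the order of genes depends on it. On this scale *Smc4* was the most abundant of the 42 in vehicle tumors, at 49.2 ± 2.92 RPKM (SD, n = 3). *Tpx2* followed at 27.6 RPKM, *Gtse1* at 26.4, *Cdc20* at 23.6, *Anln* at 23.1 and *Ube2c* at 22.97, and *Cenpf* was the lowest at 1.43 RPKM. In RGS tumors *Smc4* was again first, at 18.3 ± 2.37 RPKM, and it was followed by *Bub3* at 15.9, *Incenp* at 15.4, *Cdc20* at 14.1 and *Pttg1* at 13.8 RPKM. *Anln* went from 23.1 to 3.76 RPKM, so the order of levels differed between the groups. *Cenpk* was lowest in RGS tumors, at 0.539 RPKM.

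**Figure D3:**
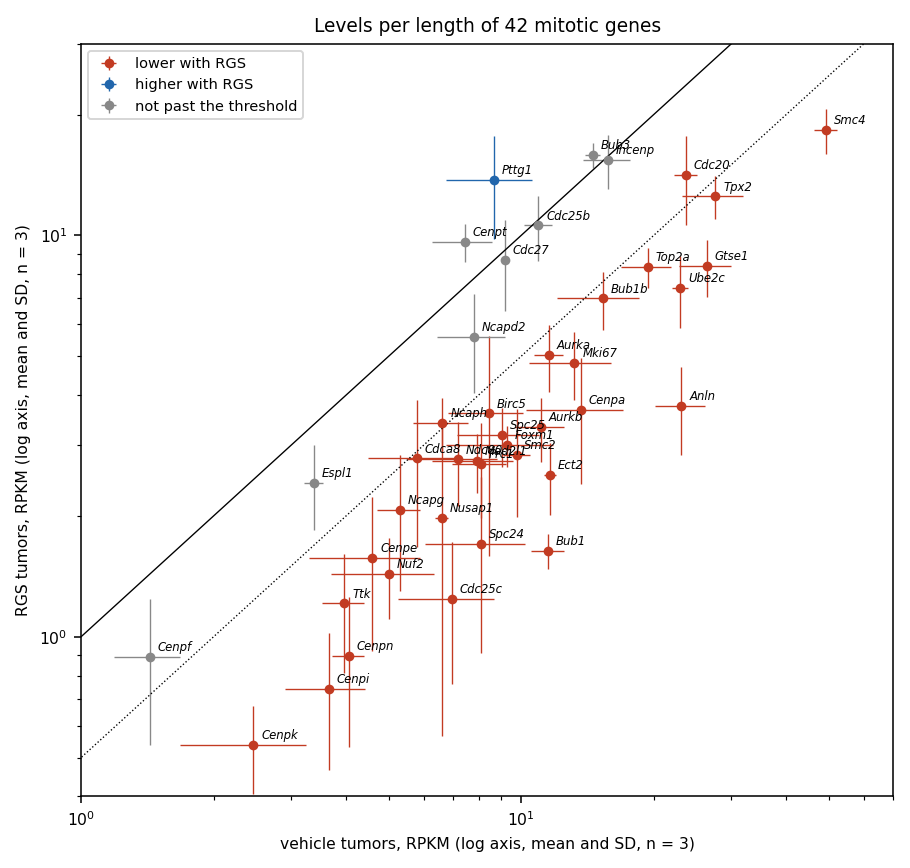
Mean RPKM of each of the 42 mitotic genes in RGS tumors (y) against vehicle tumors (x), both on log scales, with bars of 1 SD over 3 tumors. The solid line marks equal levels and the dotted line an RGS level at 0.5 of the vehicle level; *Smc4* lies at 49.2 and 18.3 RPKM, *Anln* at 23.1 and 3.76 RPKM, and *Pttg1* lies above the solid line.

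The rest of the mitotic machinery was read from lists of the same structures, beside shares of 16.5% lower and 16.3% higher over all genes tested. Of 104 other genes listed for these structures, 101 were in the table and tested, 58 of them (57.4%) fell, 6 (5.94%) rose and the median log2 fold change was -0.99. At kinetochores and in the checkpoint, 12 of 18 fell, led by *Sgo1*, the gene of shugoshin, which protects centromeric cohesin (log2 fold change -3.01 ± 0.37), and by *Ska1* (-2.62), and 2 rose. Those 2 were *Zwint*, which encodes a kinetochore adaptor and went from 223.9 ± 3.83 to 497.5 ± 54.4 CPM (SD, n = 3; log2 fold change 1.15, adjusted p = 1.06e-05), and *Mad1l1*, the gene of the MAD2 partner MAD1 (1.06, adjusted p = 7.46e-04). Of 16 centromere genes, 9 fell, among them *Cenpu* (-3.07) and the CENP-A loading factor gene *Hjurp* (-1.22), and 0 rose, with 0 rising at an unadjusted p under 0.05.

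Condensin and cohesin genes fell in 8 of 15 cases, with *Esco2*, an acetyltransferase for cohesin, at -2.94 and *Ncapg2*, a condensin II subunit, at -2.09. Among 16 other genes of the anaphase-promoting complex, 4 (25%) fell and 3 (18.8%) rose, shares close to the 16.5% and 16.3% over all genes tested, and the median was -0.24. There *Cdc23* fell by 1.20 (adjusted p = 4.48e-05), and *Fzr1*, the gene of the late activator CDH1, rose by 0.93 (adjusted p = 0.00101), *Anapc4* by 0.63 and *Anapc2* by 0.41. In the wider set of spindle and cytokinesis genes, 17 of 23 fell, with *Hmmr* at -2.26, *Aspm* at -2.19 and *Cep55* at -2.19, and *Haus8*, an augmin subunit, rose by 0.96 (adjusted p = 0.00171). Of 13 genes of mitotic entry and transcription, 8 fell, among them the MuvB subunits *Lin54* (-2.03) and *Lin9* (-1.16), *Mybl2* (-1.15), and *Mastl* (-2.41), the kinase that restrains PP2A in mitosis. The other MuvB subunits listed had no call, *Lin52* at -0.698 (adjusted p = 0.0865) and *Lin37* at 0.415 (adjusted p = 0.15). For *Lin37* each RGS tumor lay above each vehicle tumor.

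Genes of neighboring steps were lower too. All 46 DNA replication genes tested had negative log2 fold changes, 29 (63.0%) fell, 0 rose by edgeR, by DESeq2 or at an unadjusted p under 0.05, and the median was -0.80. *Mcm10*, a replication initiation factor, fell by 1.998, *Rfc4*, a clamp loader subunit, fell by 1.92 and *Orc4*, an origin recognition subunit, fell by 0.58. Among 19 mitotic kinesin, cyclin and polo-like kinase genes tested, 16 (84.2%) fell and 0 rose, by the same 3 counts, with a median of -1.16. The 3 with no call were *Plk1*, *Kif2c* and *Ccnf*. *Plk1*, the only polo-like kinase tested, was at -0.34 with overlapping groups (adjusted p = 0.37), *Kif2c* at -0.585 and *Ccnf* at 0.003. There *Kif18a*, a motor that dampens chromosome movement, fell by 2.65, *Ccnb1*, the gene of cyclin B1, fell by 1.96 and *Cks1b*, a subunit of cyclin-dependent kinases, fell by 0.72. Differences in share or median between any of these lists and the 42 genes were not tested.

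**Figure D4:**
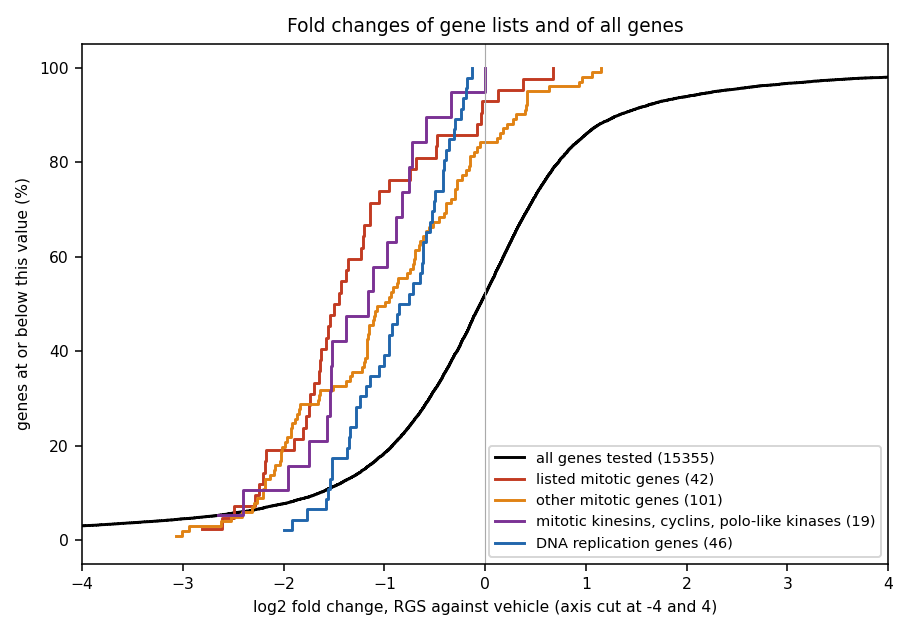
Cumulative share of genes (y, percent) at or below a given log2 fold change of RGS against vehicle tumors (x), for the 42 mitotic genes, the other mitotic genes, DNA replication genes, the kinesin, cyclin and polo-like kinase genes and all genes tested. The medians are -1.48, -0.99, -0.80, -1.16 and -0.05 in that order.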

How the data were processed

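RNA was sequenced from 6 tumors as paired-end reads of 150 bases. The table the authors deposited holds raw counts for each gene and tumor, with gene positions and lengths on mm10. The submitters' processing notes name cutadapt 1.18, FastQC 0.11.7, STAR 2.7.1a and featureCounts 1.6.4. The annotation release, the strand setting and the handling of multi-mapping reads are not given in the sources used here, and the study's own test was DESeq2. The samples' names matched the columns, and 0 other per-sample columns were present.

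From these counts, fold changes came from edgeR 4.0.16 (glmQLFit and glmQLFTest) under R 4.3.3. Genes were kept at a group median of 5 counts or more in either group, and the fit took TMM scaling, dispersions not robust, all 6 tumors, no covariate, Benjamini-Hochberg over 15355 genes and an adjusted p threshold of 0.05. The standard error is the size of the log2 fold change over the root of its F statistic. CPM and RPKM values use the TMM-scaled library and the length column, with SDs over 3 tumors. A count of 3, the floor, is 0.0856 to 0.226 CPM, and it covers counting error only. The procedure was checked on simulated data. Libraries of the same group differed by more than counting noise, so none was merged.

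The 42 genes and the lists were chosen with earlier results of these data known. All 42 are named. Of each other list, up to 3 called genes with the largest and 3 with the smallest log2 fold change are named. Up to 3 called in the opposite direction are also named, besides overlapping genes and marker genes. Markers at 0, called or largest in a sum, the pairs and the promoters shown were chosen after their values were seen. So were the genes with no call that are named outside the 42. *Itgb3bp*, *Haus1*, *Nek2* and *Plk4* were listed and are not used here. Overlaps were read from GENCODE M21 (GRCm38), whose positions match the table's, and promoters from RefSeq (GRCm38.p6). Alternatives were DESeq2 1.42.0, limma 3.58.1 voom, other normalizations, filters and thresholds, thinned counts, mitochondrial genes left out, each tumor left out, another CHR and a shorter promoter window.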

Additional observations from a re-analysis of the deposited data

How the results depend on the processing

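No paired analysis was possible because the groups share no replicate numbers. Of the 42 mitotic genes, 33 were lower in the fit reported and between 31 and 36 over the alternatives, 36 with library size only and 31 when a fold change of 2 or more was also required. The 1 gene called higher, *Pttg1*, became 0 with robust dispersions, upper-quartile factors, library size only, without mitochondrial genes, at an adjusted p under 0.01 or with that fold change required, and the range with each tumor left out was 0 to 1. With it, 2 of the other mitotic genes were higher and 18 DNA replication genes lower. The median of the 42 genes was -1.62 with library size only and -1.55 to -1.39 with each tumor left out. Library size only moved the median of all genes to -0.19, from -0.05, and put 62.8% of all calls on the lower side, from 50.3%. It also took *Bub3* to -0.015 on the log2 scale and gave lower calls to *Cenpf* (adjusted p = 0.0421), *Ncapd2* (0.0438) and *Espl1* (0.0384), and *Cenpf* passed without the filter on low counts (0.0474). Values close to 0 changed sign: *Incenp* ranged from -0.181 to 0.051 with each tumor left out, *Cdc27* from -0.30 to 0.06 and *Cdc25b* from -0.201 to 0.048, and *Cdc25b* was 0.036 after thinning. In the 150 bases before the start, CHR letters stood in 14 of the 35 promoters, against 11.2% of genes tested, and both elements in 13, against 3.35%. The cause of these changes was not tested. With 3 tumors a group, outlying tumors were not tested for, and library size differed by group throughout.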

Other observations

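*Kif11*, the gene of the spindle motor Eg5, had 0 counts in all 6 tumors, and it was not tested for a change. It was on the list of kinesin, cyclin and polo-like kinase genes, of which 19 were tested, and is named here after its values were seen. Whether the 0 reflects absent RNA or the way reads were counted was not tested.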
